A study of Mus musculus with 9 samples.

Results

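The genes described here are the kappa variable genes of the mouse, that is every gene of the deposited count files whose symbol starts with Igkv, which is 160 of 55385 genes. Spleens of 3 genotypes were compared, without the R594C change in IRE1 (WT), with it on 1 allele (R594C/+) and with it on both alleles (R594C/R594C). IRE1 is the stress sensor of the endoplasmic reticulum that splices the Xbp1 messenger RNA. Total splenocytes, sorted with the dye DAPI and marked with hashtag antibodies, were read by droplet sequencing of the 3′ ends of transcripts. The hashtags mark 4 replicates for WT, 4 for R594C/+ and 2 for R594C/R594C. The labels give no age, sex or treatment for the mice. They also leave unsaid whether the replicates came from different animals, and every p-value given here rests on the spread among hashtag replicates. Xist, the transcript of the inactive X chromosome, was expressed in 1 of 4 WT, 4 of 4 R594C/+ and 1 of 2 R594C/R594C replicates, so the WT replicates came from more than 1 animal and those of R594C/R594C from different animals, while for R594C/+ the spread may be technical. Since each genotype was stained and captured on its own, an effect of genotype cannot be told apart from one of the capture or the staining. Sex, as far as Xist shows it, was also unequal between the genotypes, with Xist in all R594C/+ replicates.

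A kappa light chain is made when a developing B cell joins 1 kappa variable (V) gene to a joining segment, in front of the single kappa constant gene Igkc. The V gene encodes most of the part of the light chain that touches antigen. A B cell normally keeps 1 productive light chain, so a plasma cell, the cell type that secretes antibody, normally uses 1 light chain V gene. The V gene alone does not mark a clone, since cells with the same kappa V gene had different heavy chain genes (below). In 3′ sequencing most reads of a light chain fall in Igkc, and the V gene is seen in few of them. No sequence of these V genes was used here.

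The captures held 16027 barcodes for WT, 17980 for R594C/+ and 17444 for R594C/R594C, of which 147, 168 and 157 also occur in another capture. Hashtag calling left 12759, 15344 and 15502 single cells, and removal of likely doublets within a hashtag took out 3.39%, 4.16% and 9.99% of these. Plasma cells were taken as cells with at least 5 Xbp1 and at least 20 Jchain UMIs (molecular tags that each stand for 1 original molecule). There were 797 of them, from 43 to 125 per replicate. Of these, 738 lay in the cluster with plasma cell markers and 57 in a cluster led by cell cycle genes. The plasma cell surface marker Sdc1 had a UMI in 85.3% and the T cell gene Cd3e in 3.76%. The B cell gene Ms4a1 had one in 45.04% of these cells, and the source of its UMIs was not tested. Mzb1, a chaperone of antibody assembly, had one in only 15.7%. The gate has a count threshold, with 12 cells just inside it and 19 just outside.

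Of the 160 kappa V genes, 118 had at least 1 UMI in the single cells and 42 had none. RefSeq (assembly GRCm38.p6, the assembly of mm10) places all 160 on chromosome 6, between 67555636 and 70704177, with Igkc at 70726435 to 70726754. Igkv3-1 lies nearest to Igkc and Igkv2-137 farthest from it. RefSeq lists 101 as V segments and 59 as pseudogenes, and 20 of the pseudogenes had a UMI. The single cells held 34667 kappa V UMIs, of which 28243 (81.5%) were in plasma cells.

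Most plasma cells had 1 strongly dominant kappa V gene. The median plasma cell held 30 kappa V UMIs. Cells with a called gene held medians of 33 kappa V and 8385 Igkc UMIs, and the median of their own ratios was 4.23 kappa V UMIs per 1000 Igkc UMIs. In the 700 cells with at least 10 kappa V UMIs, the first gene held a median of 98.5% of them, and in 46.9% of these cells every kappa V UMI came from a single gene. A gene with over 50% of the UMIs was called dominant, which gave a gene to 697 cells and left 3 without. Of the 97 cells with fewer than 10 kappa V UMIs, 34 held more lambda constant than Igkc UMIs. In all, 72 genes were dominant in at least 1 cell, 18 of them in at least 10 cells.

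A second gene with at least 20% of the kappa V UMIs was seen in 47 cells. In 18 of these cells both genes belonged to the same family, and the commonest pairs all held Igkv4-61: with Igkv4-78 in 5 cells, with Igkv18-36 in 4 and with Igkv4-59 in 3. Reads of near-identical genes can be split by the authors' counting, so a second gene of the same family is uncertain. The cells with a second gene were no deeper than the others, with a median of 18686 against 19298 RNA UMIs.

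**Figure D1:**
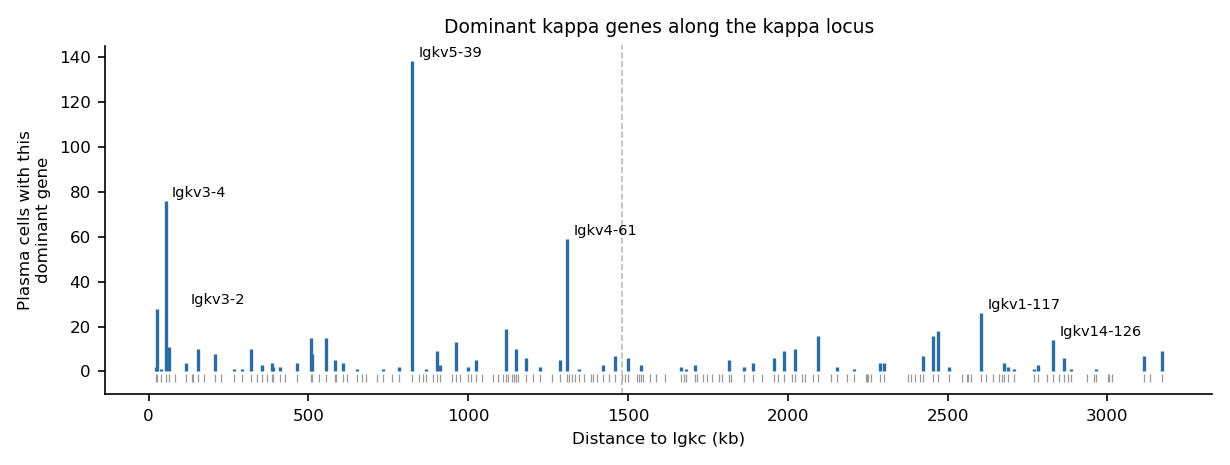
Number of plasma cells (vertical axis) in which each of the 160 kappa V genes was dominant, by distance of the gene from Igkc in kb (horizontal axis). Grey ticks mark all genes and the dashed line separates the 80 nearest from the 80 farthest. Igkv5-39 stands at 138 cells, Igkv3-4 at 76 and Igkv4-61 at 59, all among the nearest 80.

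Use of the locus was uneven. Igkv5-39 (138 cells), Igkv3-4 (76) and Igkv4-61 (59) together made up 39.2% of the 697 called cells. All of these lie on the side of the locus near Igkc. Family 5 held 149 cells, family 4 held 143 and family 3 held 140, although family 4 has 33 genes, family 3 has 13 and family 5 has 6. The 80 genes farthest from Igkc were dominant in 28.1% of the called cells. Genes that are pseudogenes by RefSeq were dominant in 14 cells, and all 14 used a single gene, Igkv14-126. This gene is known from antibodies of B1 cells (below), so its RefSeq label does not show that it makes no light chain.

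**Figure D2:**
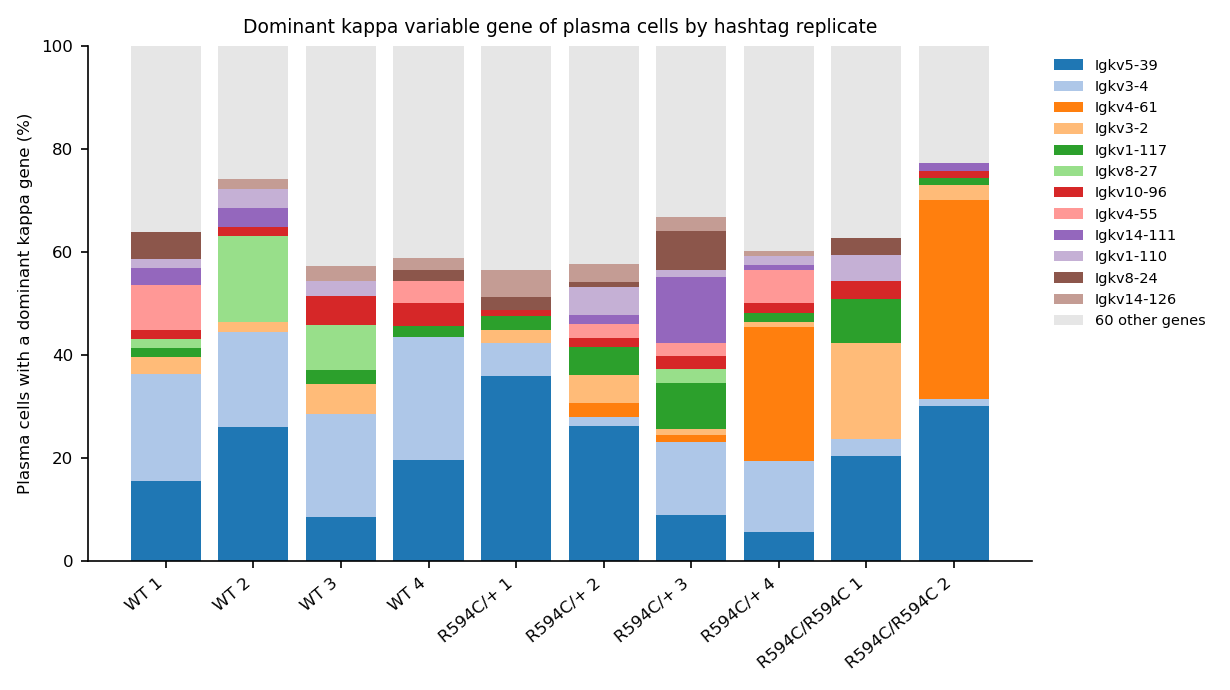
Share of called plasma cells (vertical axis, %) by dominant kappa V gene in each of the 10 hashtag replicates (horizontal axis), for the 12 genes with the highest mean share, with the 60 other genes in grey. Igkv5-39 and Igkv3-4 appear in every bar, and Igkv4-61 is large in R594C/+ replicate 4 and R594C/R594C replicate 2.

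Igkv5-39 (chromosome 6, 69900424 to 69900977) was the commonest kappa gene in the mean over replicates, at 19.6%, and it was found in all 10. It was dominant in 15.5%, 25.9%, 8.57% and 19.6% of the called cells in WT replicates 1 to 4. In R594C/+ replicates 1 to 4 it was dominant in 35.9%, 26.1%, 8.97% and 5.56%, and in R594C/R594C replicates 1 and 2 in 20.3% and 30%. The genotypes overlapped widely, and no trend with the number of R594C alleles was called (exact permutation p = 0.426, Benjamini-Hochberg adjusted p = 0.659). The R594C/+ replicates alone spanned a range wider than the distance between any of the genotype means, which were 17.4% ± 7.28 (SD, n = 4), 19.1% ± 14.3 (n = 4) and 25.2% ± 6.83 (n = 2).

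Igkv3-4 (chromosome 6, 70671789 to 70672377), a gene close to Igkc, fell with the number of R594C alleles. It was dominant in 20.7%, 18.5%, 20.0% and 23.9% of the called cells in WT replicates 1 to 4. In R594C/+ it was dominant in 6.41%, 1.80%, 14.1% and 13.9%, and in R594C/R594C in 3.39% and 1.43%. All 4 WT replicates were above all 6 replicates with the change, and R594C/+ and R594C/R594C overlapped at the low end. The means were 20.8% ± 2.28 (SD, n = 4), 9.05% ± 6.01 (n = 4) and 2.41% ± 1.39 (n = 2). The trend with the number of R594C alleles had an exact two-sided permutation p of 0.00159 (the smallest possible is 0.000317), and 0.0286 after Benjamini-Hochberg adjustment over the 18 genes dominant in at least 10 cells. Pearson's r was -0.89 and Spearman's rho -0.90 (exact permutation p = 0.00127), and r was -0.83 over the 8 replicates without the homozygotes (exact permutation p = 0.0286). Igkv3-4 was the 1 gene called of the 18 (5.56%), and it was also the only one with an unadjusted p under 0.05.

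This call was lost with the F statistic of the 3 genotypes (adjusted p = 0.194), without the Igkv4-61 cells (0.0702, chosen after seeing the data) and without any of 4 single replicates, all in the exact permutation test. Without WT replicate 2, WT replicate 3, R594C/+ replicate 3 or R594C/R594C replicate 2 the adjusted p was 0.0508, 0.054, 0.0516 and 0.108. With cells of a replicate that share both the kappa and the heavy chain V gene counted once, it was 0.167. In the sum of counts over plasma cells, fitted with edgeR across all 7524 genes tested, Igkv3-4 had a log2 difference of -3.34 ± 0.79 (SE) between R594C/R594C and WT and an adjusted p of 0.321 for any difference between genotypes. These sums rest on few cells: Igkv3-4 UMIs were found in 9 to 13 plasma cells per WT replicate and in 2 and 1 cells of the R594C/R594C replicates.

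Igkv4-61 (chromosome 6, 69416893 to 69417425) was concentrated in 2 replicates of different genotypes. It was dominant in 28 of 108 called cells (25.9%) of R594C/+ replicate 4 and in 27 of 70 (38.6%) of R594C/R594C replicate 2. R594C/+ replicates 2 and 3 had 3 cells and 1 cell, and the remaining 6 replicates had none. In WT this is 0 of 193 called cells, which allows a share of up to 1.55% (3 counts, counting error only). The trend with alleles was not called (exact permutation p = 0.0714, adjusted p = 0.478).

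The Igkv4-61 cells of the 2 replicates were alike in their heavy chain. Of the 28 cells in R594C/+ replicate 4, 22 had a heavy chain V gene that could be called, and it was Ighv1-78 in 22 of these 22. In R594C/R594C replicate 2 it was Ighv1-78 in 20 of 20. The heavy chain constant gene with the most UMIs was Ighg3, of the IgG3 class, in 22 of the 28 and in 27 of the 27 cells. Of the 4 Igkv4-61 cells elsewhere, 0 had Ighg3, and the 1 with a heavy chain V gene that could be called had Ighv1-55. No barcode of these cells occurred in both captures, their own hashtag had at least 40 UMIs and the next hashtag at most 4. Whether the cells of the 2 replicates share a clone was not tested, because the files used here hold no joined receptor sequence.

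**Figure D3:**
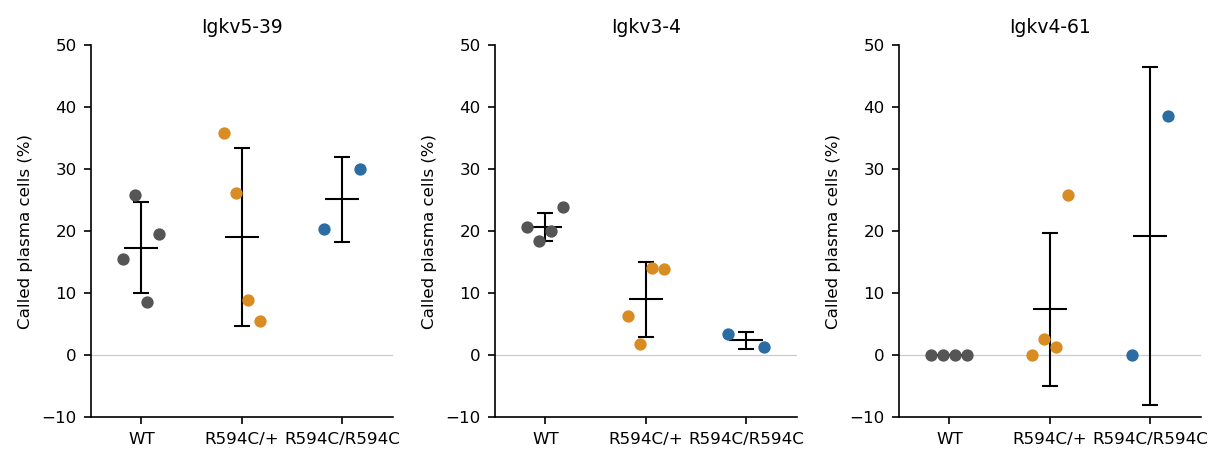
Share of called plasma cells (vertical axis, %) with Igkv5-39, Igkv3-4 or Igkv4-61 as dominant gene, by genotype (horizontal axis). Points are hashtag replicates (4, 4 and 2) and bars the mean ± SD. The WT points of Igkv3-4 lie above all others, those of Igkv5-39 overlap, and Igkv4-61 has 2 high points, 25.9% and 38.6%.

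Several of the other common genes were concentrated in 1 replicate. Igkv3-2, which lies nearer to Igkc than Igkv3-4, was dominant in 28 cells, of which 11 came from R594C/R594C replicate 1 (18.6% of its called cells). Its mean was 2.75% ± 2.43 in WT and 10.8% ± 11.2 in R594C/R594C (SD, n = 4 and 2), with an adjusted p of 0.478 in the same exact test. Igkv1-117, the most used gene of the far side, was dominant in 26 cells of 9 replicates, at 1.69% ± 1.22 for WT, 4.70% ± 3.24 for R594C/+ and 4.95% ± 4.98 for R594C/R594C. Igkv8-27 was dominant in 9 cells of WT replicate 2 (16.7%), 3 of WT replicate 3, 1 of WT replicate 1 and 2 of R594C/+ replicate 3. Igkv14-111 was dominant in 18 cells, 10 of them in R594C/+ replicate 3. Igkv10-96 was spread more evenly, with 1 or 2 cells in each of the 10 replicates. Igkv4-55, Igkv1-110 and Igkv8-24 were dominant in 19, 16 and 15 cells. The adjusted p of each of these genes was at least 0.478 over the 18 genes in the exact test of the trend.

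Some pairs of a kappa and a heavy chain V gene came back in many replicates. A heavy chain V gene could be called in 464 of the 697 cells, which gave 246 different pairs, of which 192 occurred in 1 cell only and 37 in at least 2 replicates. Igkv3-4 with Ighv1-53 was found in 29 cells of 9 replicates, and it made up 29 of the 47 Igkv3-4 cells with a called heavy chain. Igkv5-39 was found with Ighv1-75 in 19 cells of 8 replicates and with Ighv9-3 in 16 cells of 7 replicates, among 29 heavy chain genes in all. Over all cells with these kappa genes, paired or not, Ighm, the constant gene of IgM, led in 65 of 76 Igkv3-4 cells and in 102 of 138 Igkv5-39 cells, against 456 of all 697.

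Other pairs belonged to 1 replicate. Igkv3-2 with Ighv6-3 was found in 9 cells, all in R594C/R594C replicate 1. Igkv14-111 with Ighv1-78, the heavy chain gene of the Igkv4-61 cells, was found in 8 cells of R594C/+ replicate 3, most often with Ighg2c. Igkv6-25 with Ighv1-26 was found in 6 cells of R594C/+ replicate 1, most often with Ighg2b. Within a replicate, 2 cells with the same kappa gene also had the same heavy chain gene in 12.2% to 88.6% of pairs (median over replicates 39.5%). For pairs with different kappa genes it was 1.85% to 10.9% (median 2.28%), and the first value was higher in 10 of 10 replicates. The highest values, 88.6% and 65.5%, were those of R594C/+ replicate 4 and R594C/R594C replicate 2, which hold the Igkv4-61 cells with Ighv1-78.

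Igkv14-126 is known from mouse B1 cells, where with heavy chains of the Ighv11 family it makes antibodies to phosphatidylcholine. It was dominant in 14 plasma cells of 7 replicates, all 14 with Ighm. Ighv11-2 was the heavy chain gene in 10 of the 12 cells where one could be called, in 6 replicates. No R594C/R594C plasma cell held it (0 of 129 called cells), against 3 of 193 called cells in WT and 11 of 375 in R594C/+. The count of 0 allows a share of up to 2.33% (counting error only), which is above the WT mean of 1.72%. The trend was not called (exact permutation p = 0.48, adjusted p = 0.659). Igkv4-91, another gene known from such B1 antibodies, was dominant in 6 plasma cells, of which 4 were in R594C/+ replicate 3.

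In all, 5 values that describe kappa use as a whole were compared over the replicates. The share of kappa V in plasma cell RNA was 0.178%, 0.165%, 0.170% and 0.182% in WT, 0.220%, 0.195%, 0.197% and 0.193% in R594C/+, and 0.153% and 0.141% in R594C/R594C. The genotypes did not overlap, with R594C/+ highest and R594C/R594C lowest. A trend with the number of alleles cannot describe such an order, and it was not called (exact permutation p = 0.483, adjusted p = 0.604 over the 5 values), while the F statistic of the 3 genotypes had an exact permutation p of 0.000635 and an adjusted p of 0.00317. The means were 0.173% ± 0.0077, 0.201% ± 0.012 and 0.147% ± 0.0087 (SD, n = 4, 4 and 2). Leaving out any 1 replicate gave an exact permutation p of the F statistic between 0.000794 and 0.00635. Kappa V UMIs per cell, a different measure, had the same order of genotype means in the B cell classes and in T cells, which make no kappa chain (values below). As a share of RNA this order did not hold in follicular-like B cells. There R594C/R594C stood at 0.0055% and 0.0052%, above the WT replicates (0.0045% to 0.0050%). In marginal zone-like B and B1-like cells the shares of WT and R594C/R594C overlapped.

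The means of the constant gene had the same order, and its WT replicates (34.3% to 42.1%) overlapped both other genotypes. Igkc took 37.9% ± 3.55 of plasma cell RNA for WT, 42.4% ± 0.35 for R594C/+ and 35.0% ± 0.40 for R594C/R594C (SD, n = 4, 4 and 2), with an exact permutation p of 0.019 for the F statistic. Kappa V UMIs per 1000 Igkc UMIs, a ratio added after the data were seen, were 4.59 ± 0.22, 4.75 ± 0.32 and 4.20 ± 0.30, with an exact permutation p of 0.147 for the F statistic. In the edgeR fit over all genes Igkc itself was not called in plasma cells (log2 difference 0.32 for R594C/+ minus WT and -0.16 for R594C/R594C minus WT, adjusted p = 0.229 for any difference). Fewer cells that use kappa and less kappa RNA per cell cannot be told apart in these sums over cells: cells with more lambda constant than Igkc UMIs numbered 2, 8, 3 and 1 in WT, 1, 5, 1 and 1 in R594C/+ and 4 and 9 in R594C/R594C.

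The other values were not called. The median share of the first gene in a cell was 99.6% ± 0.49 for WT, 98.3% ± 1.41 for R594C/+ and 96.7% ± 4.71 for R594C/R594C. A second gene with at least 20% was found in 5.72% ± 0.58, 5.35% ± 3.80 and 11.1% ± 6.16 of the cells. Pairs of cells with the same gene made up 8.94% ± 2.62, 9.38% ± 3.43 and 15.9% ± 10.7 of all pairs. The adjusted p of each of these 3 trends was 0.293 in the exact permutation test. R594C/R594C replicate 2, which holds the 27 Igkv4-61 cells, had the highest value of the latter 2 (15.5% and 23.5%), and R594C/R594C replicate 1 had 6.78% and 8.36%, both within the range of the other genotypes. The 80 genes farthest from Igkc were dominant in 26.9% ± 6.88, 31.6% ± 9.85 and 23.6% ± 19.3 of called cells (adjusted p = 0.875). None of the 10 families dominant in at least 10 cells was called in the exact test of the trend (0 with an unadjusted p under 0.05, lowest adjusted p = 0.347).

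**Figure D4:**
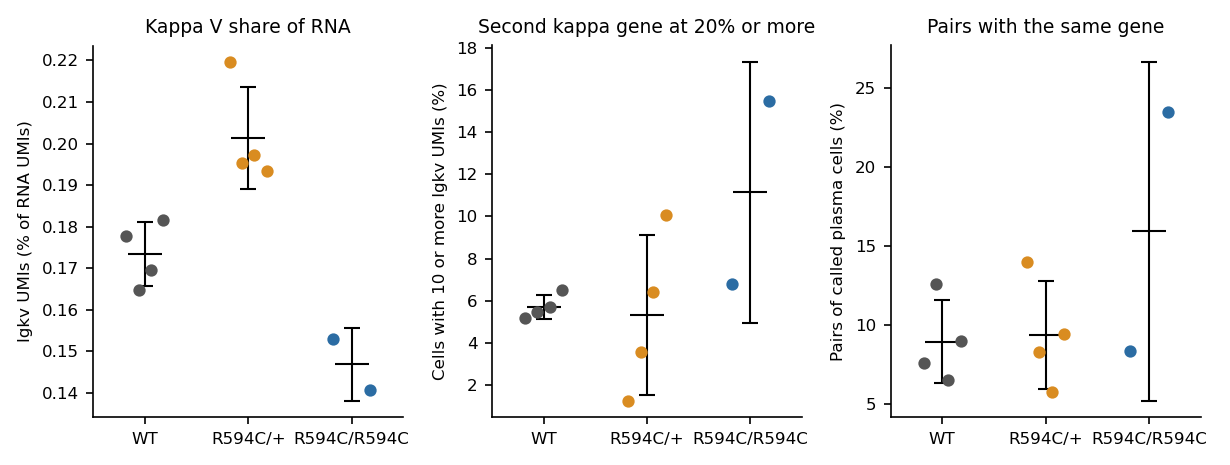
Values per hashtag replicate by genotype (horizontal axis), with mean ± SD. Left, kappa V UMIs as % of RNA UMIs in plasma cells, where the 3 genotypes do not overlap. Middle, % of cells whose second gene holds at least 20% of the kappa V UMIs. Right, % of pairs of called cells with the same gene, where R594C/R594C replicate 2 stands at 23.5%.

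Counts of each kappa V gene summed over the plasma cells of a replicate were also fitted with edgeR, with all other genes. Of 7524 genes tested, 0.346% were called for any difference between genotypes, and of the 60 kappa V genes among them 1 was called and 5 had an unadjusted p under 0.05. The count was 4 with DESeq2 and 4 with no filter on low counts. The called gene was Igkv6-32, with 0 UMIs in the 4 WT replicates, 1 in R594C/+ replicate 2 and none in the other 3, and 20 and 13 in R594C/R594C replicates 1 and 2 (adjusted p = 0.0121). All 20 UMIs of R594C/R594C replicate 1 came from 1 cell, in which Igkv6-32 was the dominant gene. The 13 of R594C/R594C replicate 2 came from 7 cells with at most 4 each, of which 6 had Igkv5-39 as dominant gene and 1 had Igkv4-61. Igkv6-32 was thus dominant in 1 plasma cell of the whole series, and without R594C/R594C replicate 1 it had too few counts to be tested. The kappa V genes had a median biological coefficient of variation of 2.07, against 0.189 for the common value of all genes. Over the 60 genes the median log2 difference was -0.41 for R594C/R594C minus WT (all genes 0.00) and 0.89 for R594C/+ minus WT (all genes 0.00).

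Igkv2-109 came next in that fit and missed the threshold (adjusted p = 0.0786). It had 0, 1, 0 and 1 UMIs in WT, 74, 88, 27 and 24 in R594C/+ and 43 and 40 in R594C/R594C. The 6 replicates with the change did not overlap the WT replicates. In each of the 6 the UMIs came from 1 to 3 plasma cells, and the cell with the most held 73, 67, 27, 23, 41 and 40 of them. It was singled out after its values were seen.

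In B cells that do not secrete, kappa V transcripts were sparse and were read against free RNA. Clusters were named from marker genes: follicular-like B (12891 cells, with Fcer2a and Ighd), marginal zone-like B (3430), B1-like (1731), and T-like cells (12756), which make no kappa chain. Kappa V UMIs per 100 cells were 14.6 ± 2.02 in follicular-like B, 20.7 ± 2.5 in marginal zone-like B and 31.3 ± 4.53 in B1-like cells (SD, n = 10 replicates), and 3.78 ± 1.29 in T-like cells. Median depth was 2450, 4614.5, 4918 and 3480.5 RNA UMIs per cell. As a share of RNA the 3 B cell classes lay between 0.0042% and 0.0056%, and T-like cells at 0.0010%. The leading kappa genes of T-like cells were also the leading genes of plasma cells: Igkv3-4 made up 21.3% and Igkv5-39 15.4% of their kappa V UMIs in the mean over replicates. Kappa V UMIs per 100 T-like cells were 3.91 ± 1.03 for WT, 4.68 ± 0.25 for R594C/+ and 1.75 ± 0.094 for R594C/R594C (SD, n = 4, 4 and 2), so the level in cells that make no kappa chain itself differed between captures. In the same order of genotypes the means were 13.2, 16.9 and 13.1 in follicular-like B cells. They were 20.2, 22.0 and 19.1 in marginal zone-like B and 30.4, 33.4 and 28.7 in B1-like cells. In each of these classes R594C/+ had the highest mean per cell and R594C/R594C the lowest, but WT and R594C/R594C replicates overlapped in each B cell class. The order of means was that of the kappa V share of plasma cell RNA, which is a different measure. The part of free RNA or of the capture in that order was not tested.

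In follicular-like B cells Igkv3-4 was called between genotypes, at a level near that of T-like cells in WT and R594C/+ (values below). The replicates of a genotype were captured together, so the edgeR p-values here do not cover a difference in free RNA between captures. Of 10134 genes tested there with edgeR, 0.602% were called for any difference between genotypes. Only 3 kappa V genes had enough counts, and Igkv3-4 was called (adjusted p = 0.0138), while Igkv12-44 (adjusted p = 0.512) and Igkv12-46 (0.697) were not. Igkv3-4 stood at 4.97, 2.59, 5.56 and 6.64 CPM (UMIs scaled to the library size) in WT, 5.47, 4.89, 4.75 and 5.75 in R594C/+ and 1.46 and 1.34 in R594C/R594C. Both homozygous replicates lay below all others, and WT and R594C/+ overlapped. The log2 difference was -1.78 ± 0.40 (SE) for R594C/R594C minus WT (adjusted p = 0.0417, where 0.0888% of all genes were called lower) and 0.09 ± 0.31 for R594C/+ minus WT.

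T-like cells also held the fewest Igkv3-4 UMIs in R594C/R594C. They held 12.5 Igkv3-4 UMIs per 1000 cells for WT, 9.66 for R594C/+ and 0.468 for R594C/R594C, beside 13.3, 13.0 and 3.44 in follicular-like B cells. In WT and R594C/+ the follicular-like level was near that of T-like cells, so it is not clear of free RNA. In R594C/R594C it was above the T-like level. The part of free RNA in the called difference was not tested. The median depth of T-like cells was higher than that of follicular-like B cells. Without R594C/R594C replicate 1 or 2 the adjusted p of this gene was 0.172 and 0.141.

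**Figure D5:**
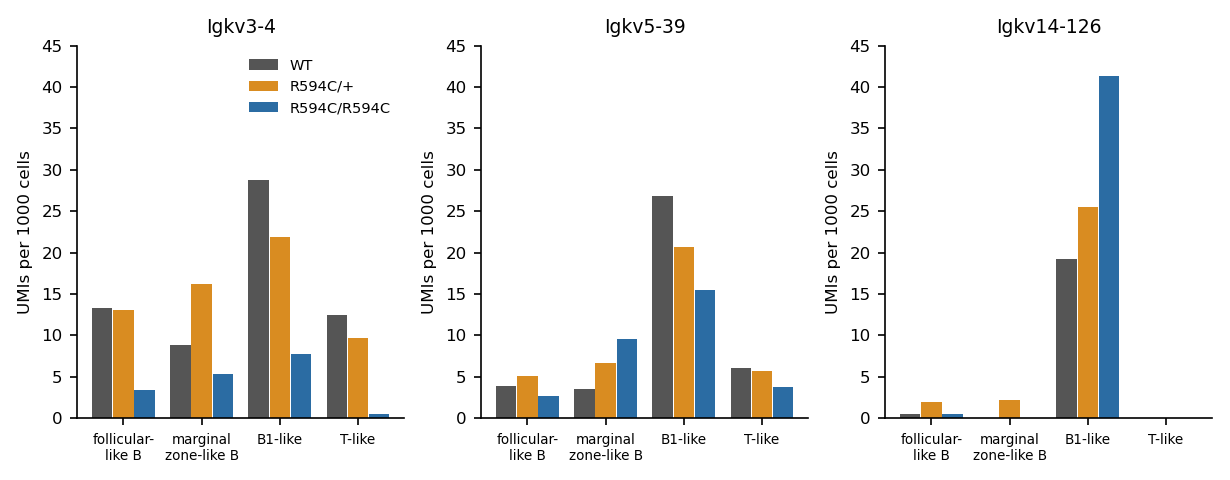
UMIs per 1000 cells (vertical axis) of Igkv3-4, Igkv5-39 and Igkv14-126 in 3 B cell classes and in T-like cells (horizontal axis), by genotype, each bar the sum over the replicates of a genotype. Igkv3-4 in follicular-like B cells is near its level in T-like cells in WT and R594C/+, while Igkv14-126 is at 0 in T-like cells and reaches 41.3 in B1-like cells of R594C/R594C.

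The use of kappa genes in follicular-like B cells was broad. Igkv3-4, Igkv1-117, Igkv12-44, Igkv12-46 and Igkv6-15 led, with 7.70%, 5.29%, 5.08%, 4.67% and 4.05% of the kappa V UMIs in the mean over replicates. Igkv3-4 had 9.23 UMIs per 1000 cells, against 7.45 in T-like cells, so its place at the head of this order is not clear of free RNA. The last 4 had 7.76, 8.07, 6.75 and 5.28, against 1.65, 1.02, 1.33 and 0.549 in T-like cells. Igkv5-39 stood at 2.82% in follicular-like B cells and at 15.3% in plasma cells, higher in plasma cells in 10 of 10 replicates, and Igkv6-15 stood at 4.05% and 1.23%, higher in plasma cells in 0 of 10. The follicular-like level of Igkv5-39, 3.80 UMIs per 1000 cells, was below the 5.17 of T-like cells. Its share there and its fold against plasma cells are therefore not clear of free RNA. In marginal zone-like B and B1-like cells no kappa V gene had enough counts to be tested for genotype.

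Between B cell classes, tests with each replicate as a block gave calls only for plasma cells when genes with low counts were filtered out. There 5 kappa V genes passed the filter and all 5 were higher in plasma cells than in follicular-like B cells, where 36% of all genes tested were called higher. They were Igkv5-39 (log2 difference 8.68 ± 0.21, SE), Igkv3-2 (7.74 ± 0.27), Igkv3-4 (7.24 ± 0.19), Igkv10-96 (6.05 ± 0.15) and Igkv1-117 (5.90 ± 0.38), each higher in 10 of 10 replicates, beside 6.69 ± 0.045 for Igkc. The 5 genes passed because they were high in plasma cells, and their count is a description. With no filter 81 of 111 were higher and 0 lower, where 18.5% of all genes were called higher and 21.5% lower.

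With no filter, 102 kappa V genes could be tested between marginal zone-like and follicular-like B cells, and 104 between B1-like and follicular-like B cells. In marginal zone-like B cells Igkv2-109 was higher (34 against 15 UMIs, log2 difference 2.04 ± 0.48, SE, adjusted p = 0.000209, higher in 9 of 10 replicates), and Igkv3-4 and Igkv10-94 were lower (adjusted p = 0.0101 and 0.0367). The fit scales to RNA per class: per 1000 cells Igkv3-4 stood at 10.8 in marginal zone-like and 9.23 in follicular-like B cells, not lower, and at 7.45 in T-like cells. Igkv10-94 stood at 0.583, 1.78 and 0.314. Over all genes, 9.65% were called higher and 10.6% lower in that edgeR fit. In T-like cells Igkv2-109 had 3 UMIs in 12756 cells.

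B1-like cells held Igkv14-126. It had 47 UMIs in 1731 B1-like cells, 13 in 12891 follicular-like B cells and 0 in 12756 T-like cells, and it was the leading kappa gene of B1-like cells at 8.07% ± 5.34 of their kappa V UMIs (SD, n = 10). The log2 difference from follicular-like B cells was 3.29 ± 0.46 (SE), with an edgeR adjusted p of 1.41e-11, higher in 8 of 10 replicates, in the fit with no filter where 12% of all genes were called higher and 13.5% lower. The other 2 B1-like replicates, WT replicate 4 and R594C/+ replicate 2, had none. By genotype its level in B1-like cells was 19.2 UMIs per 1000 cells for WT, 25.5 for R594C/+ and 41.3 for R594C/R594C, from 10, 21 and 16 UMIs. The difference between genotypes could not be tested at these counts. R594C/R594C replicates thus held Igkv14-126 in B1-like cells. Their 0 of 129 called plasma cells allows a share of up to 2.33%, above the WT mean of 1.72%.

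In the same fit Igkv5-39 and Igkv2-109 were also higher in B1-like cells (adjusted p = 0.00567 and 0.0369), and Igkv1-117 and Igkv6-25 were lower (adjusted p = 0.000672 and 0.0252). Igkv5-39 had 21.4 UMIs per 1000 B1-like cells, 3.80 in follicular-like B and 5.17 in T-like cells, and it was higher than in follicular-like B cells in 9 of 10 replicates. Igkv1-117 had 4.04, 7.76 and 1.65, and was higher in 0 of 10. Igkv4-91 was not called (adjusted p = 0.192, 10 UMIs in B1-like and 9 in follicular-like B cells).

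Other genes of the light chains did not pass the test between genotypes in plasma cells, follicular-like B, marginal zone-like B or B1-like cells. In plasma cells 0 of 1 tested kappa constant or joining gene, 0 of 7 lambda genes, 0 of 9 genes of recombination and repair and 0 of 1 surrogate light chain gene were called by edgeR. Of the 11 genes of antibody secretion and heavy chain constant genes, 0 were called in plasma cells by edgeR. Among them were Jchain, which links IgM and IgA chains (adjusted p = 0.901), Xbp1 (0.248) and Ern1, which encodes IRE1 (0.848). Plasma cells were chosen by their Xbp1 and Jchain UMIs, which narrows any difference in these genes. The tests of Xbp1 and Jchain therefore cannot decide whether they differ between genotypes. In follicular-like B cells 5 of the 9 tested genes of this list were called, where 0.602% of all genes were. All were heavy chain constant genes (Igha, Ighg2c, Ighg2b, Ighg1 and Ighm). Of these, R594C/R594C minus WT was called higher for Igha (log2 difference 0.93) and lower for Ighg2c (-2.50) and Ighg2b (-1.28). Their levels in T-like cells were not measured, and the part of free RNA in these calls was not tested. The calls in marginal zone-like B cells were 5 of 9 (Jchain, Ighg2c, Ighg2b, Ighg1 and Ighm), where 0.634% of all 9313 genes tested were called. In B1-like cells 1 of 10 was called (Ighg2c), where 0.208% of all 8666 genes were.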

How the data were processed

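The authors deposited raw UMI counts per cell barcode for RNA, surface antibodies and hashtags, made with Cell Ranger 5.0.0 per the file headers; the submitters' processing notes also name STAR, Seurat 3.1.4 and the genome build mm10. Only RNA and hashtag counts were used here. After barcodes under 200 genes or over 10% mitochondrial UMIs had been dropped, hashtags were assigned with HTODemux (Seurat 5.3.0, quantile 0.99), and a score against simulated doublets removed further cells. Clusters (Leiden, leidenalg 0.10.2, resolution 1.5, 30 components of 2000 genes) were made without antigen receptor segments and named from listed markers.

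A dominant kappa gene needed at least 10 kappa V UMIs and over 50% of them, and a heavy chain gene at least 10 UMIs. Values per replicate were tested with an exact two-sided permutation of Pearson's r with the number of R594C alleles, adjusted by Benjamini-Hochberg. Counts summed per replicate and class were tested with edgeR 4.0.16 (quasi-likelihood, TMM, filterByExpr, any difference between 3 genotypes) and between classes with the replicate as block; DESeq2 1.42.0 was an alternative, run on the same filtered genes with its own filter on low counts switched off, because that filter's cutoff changed with the numerical library. No kappa V gene passed the filter in marginal zone-like or B1-like cells, so their class comparisons are given without it. On simulated counts the plasma cell fit (7524 genes) recovered 35% of 2-fold and 81% of 4-fold changes, and the follicular-like fit (10134 genes) 91% and 98%. These rates are over all genes of a fit, and the rate for kappa V genes alone was not tested. In plasma cells the kappa V genes had a median biological coefficient of variation of 2.07, against a common value of 0.189. Intervals and limits from counts cover counting error only.

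Genes were named by rule: the 12 with the highest mean share of called plasma cells, kappa V genes called between genotypes, the 5 leading in follicular-like B cells, those with the largest changes between classes, Igkv14-126 and Igkv4-91, and any dominant in over 20% of a replicate. Igkv2-109, Igkv10-94 and Igkv6-25 were named after their values were seen. The members and lists were chosen with earlier results of these data known.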

Additional observations from a re-analysis of the deposited data

Results flagged for a closer look

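Single replicates stood apart from the 3 others of their genotype in 5 of 40 groups of values tested with Dixon's criterion. For continuous values chance alone flags about 1 in 20 groups. Many groups here are shares of few cells with values of 0, where that rate does not hold, so the 5 cannot be set against it. The share of called plasma cells with Igkv4-61 was 25.9% in R594C/+ replicate 4, and the next value was 2.70%. For Igkv14-111 it was 12.8% in R594C/+ replicate 3, and the next value was 1.80%. For Igkv8-27 it was 2.56% in R594C/+ replicate 3 and 0% in the other R594C/+ replicates, which rests on 2 cells. The 80 genes farthest from Igkc were dominant in 37.1% of called cells of WT replicate 3, and the other WT replicates lay between 22.4% and 24.1%. The kappa V share of plasma cell RNA was 0.220% in R594C/+ replicate 1, and the other R594C/+ replicates lay between 0.193% and 0.197%.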

How the results depend on the processing

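Of 226 alternative values for 14 summary results, 192 kept their direction and side of the threshold, 21 counts moved by over 1.5 times, 11 turned direction and 2 passed the threshold newly; of 372 for 23 single-gene results, 360 held and 12 lost the call. The cause of these changes was not tested. The Igkv3-4 trend in plasma cells, the 1 usage call, gave 0 calls with the F statistic (adjusted p = 0.194), with cells of 1 kappa and heavy pair counted once (0.167), without the 2 replicates with many Igkv4-61 cells (0.0982) and without the Igkv4-61 cells (0.0702), the last 2 chosen after seeing the data; leaving out 1 replicate gave 0 to 1 calls (adjusted p 0.00952 to 0.108). Families called ranged from 0 to 1 (1 without R594C/R594C replicate 1). The kappa V share of RNA passed with the F statistic (r = -0.25, adjusted p = 0.00317). The trend r of uncalled values turned direction for the farthest genes with at least 20 kappa V UMIs (0.0317), pairs counted once (0.14), without both Igkv4-61 replicates (0.59) or the Igkv4-61 cells (0.0867). Without both Igkv4-61 replicates it also turned for the kappa V share (0.0572), the second gene (-0.0760) and pairs with the same gene (-0.0212). Leaving out 1 replicate, r ranged from -0.28 to 0.44 for the farthest genes, -0.39 to 0.0874 for the kappa V share, 0.07 to 0.59 for the second gene, -0.0114 to 0.65 for pairs with the same gene and -0.82 to -0.19 for the first gene's share (adjusted p = 0.0476 without R594C/R594C replicate 1, exact permutation). Kappa V genes called between genotypes in plasma cells numbered 4 with DESeq2, 4 with no filter and 1 to 2 leaving out 1 replicate, and 0 to 1 in follicular-like B cells leaving out 1 replicate. With no filter 3 were called in marginal zone-like, 5 in B1-like and 81 in plasma cells against follicular-like B cells.

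Same-numbered WT and R594C/+ replicates had correlations of their deviations from -0.0483 to 0.0434 (4 pairs), none over 0.1, and were taken to share only a number; the 2 R594C/R594C replicates mirror each other by construction and do not bear on this. With the replicate number as a block, kappa V calls between genotypes were 7 in plasma cells and 0 in follicular-like B cells (Igkv3-4 adjusted p = 0.174), and usage calls 0 (Igkv3-4 adjusted p = 0.75, exact permutation).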
